A study of Mus musculus with 10 samples.

Results

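The 10 immediate early genes Fos, Fosb, Jun, Junb, Egr1, Egr2, Egr3, Ier2, Arc and Zfp36 were followed through osteogenic culture of MC3T3 cells, a mouse calvarial pre-osteoblast line. They were taken by name from the 23358 rows of the gene count table, because their RNA had declined over the culture in both treatments. Their decline between days was therefore what chose them. It is described below with no test. The difference between the inhibitor and vehicle averaged over days was not used in the choice and was tested. Whether the inhibitor changed the decline was tested as well. Genes without a decline in both treatments could not be chosen, which limits what that test could find.

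Immediate early genes are switched on within minutes of a signal such as serum, a growth factor or stretch, without new protein synthesis, because the factors that activate them already sit on their promoters. Serum response factor (SRF) with its ternary complex partners, and the cyclic AMP response factor CREB, are the best known of these. Most products are short-lived transcription factors that pass the signal to later genes. In osteoblast cultures the family is known for its response to serum, parathyroid hormone and mechanical load, and the AP-1 dimers of FOS and JUN proteins are regulators of bone formation.

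Every culture was kept in osteogenic medium (beta glycerol phosphate plus ascorbic acid). Cells received vehicle or 5 µM GSK126, an inhibitor of EZH2, the methyltransferase that places the repressive mark H3K27me3. Vehicle or compound was given at the start and on day 3 and withdrawn on day 6, and RNA was sequenced on days 3, 6 and 10. Each treatment and day had 1 library (6 in all), and H3K27me3 chromatin immunoprecipitation was done 24 hours after the first dose, with 1 immunoprecipitate and 1 input library per treatment. MC3T3 is a single established line, and nothing in the labels says that the 6 cultures were independent experiments.

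Medium was changed on a schedule of every 3 days. Whether the RNA of days 3 and 6 was taken before or after the change due on that day is not given in the sources used here. Days in culture and time since the last medium change therefore cannot be told apart for these genes, nor can days in culture and withdrawal in the GSK126 libraries of day 10. The vehicle cultures never had the compound. Fewer cells that express a gene and less RNA per cell cannot be told apart in such bulk libraries either. The total of the gene counts was 97291878 to 111537936 per library. The ribosomal precursor gene Rn45s held 4.37% of it in vehicle on day 3 and up to 7.47% later, and without Rn45s in the table the direction of all 10 genes was the same in every fit. Osteoblast markers were abundant, all 8 of 8 being tested, at a summed 55487 to 75171 CPM (counts per 1000000 counts of the library), with Col1a2 the highest. Of the 8, 5 rose between days 3 and 10 and 0 fell (edgeR adjusted p below 0.05), beside 14.1% and 12.5% of all genes. The log2 difference was 5.66 for Bglap, 2.19 for Spp1, 2.16 for Ibsp, 1.37 for Alpl and 0.86 for Sp7. With no treatment term in the fit 0 of the 8 passed. The median of the 8 was 1.12, and 0.73 to 1.51 with 1 library of day 3 or day 10 left out. Fewer of the 8 passed in each of these fits with a library left out. Ibsp (2.18, edgeR adjusted p = 0.0251) and Bglap (3.34, edgeR adjusted p = 0.0421) were also higher with GSK126, as were 1.01% of all genes. Neither passed without day 6 or without day 10. The part of these markers in the course of the immediate early genes was not tested. The 6 endothelial markers summed to 0.057 to 0.335 CPM (Kdr at 0 counts in every library), the 6 adipocyte markers to 0.269 to 0.964 CPM and the 7 blood cell markers to 3.75 to 6.36 CPM.

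The group as a whole was a small and shrinking part of the RNA. Together the 10 genes made up 1197 CPM of the unscaled total in vehicle and 984 with GSK126 on day 3. Their share was 189 and 206 at day 6, then 98.2 and 90.9 at day 10. The drop was already large by day 6, and the treatments lay close together on each day compared with the distance between days. Levels given below for single genes are CPM scaled by trimmed mean of M values (TMM), which compare libraries but not genes.

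Fos (chr12:85473901-85477270, build mm10) encodes c-FOS, which binds DNA only as a dimer with a JUN protein. On day 3 it had 108 CPM in vehicle and 104 with GSK126. Day 6 gave 4.43 and 8.46, and day 10 gave 1.63 and 2.08. The day 3 libraries stood far above all others. Fos was 65.7-fold lower on day 10 than on day 3 in vehicle and 49.6-fold lower with GSK126. Only 1 of the 14344 tested genes had a larger fitted decline. Fosb (chr7:19302696-19310045) encodes a close relative of c-FOS with the same partners. It had 12.0 CPM in vehicle and 9.50 with GSK126 on day 3, 5.30 and 8.30 on day 6, then 3.35 and 2.10 at the end. Its decline over the whole period was 3.56-fold and 4.49-fold, far smaller than that of Fos.

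Jun (chr4:95049036-95052222) encodes c-JUN, which can pair with itself or with a FOS protein. It was at 92.1 and 74.7 CPM on day 3 in vehicle and GSK126, 58.2 and 39.1 on day 6, then 27.8 and 19.6 on day 10. Each day lay below the one before it in both treatments, and the vehicle library was the higher one of each day. The decline of Jun was the smallest of the 10 in the fit over both treatments, 3.31-fold in vehicle and 3.81-fold with GSK126. Junb (chr8:84976909-84978748) encodes JUNB, a weaker activator that can oppose c-JUN. It had 140 and 102 CPM on day 3, 16.7 and 33.4 on day 6, then 16.3 and 27.1 on day 10. Here the order of the treatments turned between day 3 and day 6, and the day 6 and day 10 libraries overlapped.

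The EGR genes encode zinc finger factors that bind GC-rich sites. Egr1, the classic serum-response member, had 354 CPM in vehicle on day 3 and 283 in its GSK126 counterpart. The day 6 libraries had 51.0 and 58.8 CPM, those of day 10 16.2 and 14.4. It was 21.8-fold and 19.6-fold lower at the end. Egr2 (chr10:67537869-67542188), also known as Krox20 and needed for normal endochondral bone, had 93.3 and 78.4 CPM, then 16.5 and 13.6, then 4.96 and 2.23. It was 18.7-fold lower on day 10 in vehicle and 34.9-fold lower with GSK126. Egr3 (chr14:70077445-70080157), itself a target of other EGR proteins, had 9.15 and 8.32 CPM on day 3, 5.24 and 5.55 on day 6, then 1.65 and 0.891 on day 10. For all 3 EGR genes both libraries of each day lay below both of the day before.

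The remaining 3 genes are not FOS, JUN or EGR factors. Ier2 (chr8:84661331-84662852), a small nuclear protein of the serum response, had 209 and 173 CPM on day 3, 17.5 and 27.7 on day 6, then 13.3 and 13.9 on day 10. Arc (chr15:74669083-74672570), best known at synapses, where it controls receptor uptake, had 40.6 and 23.5 CPM, then 7.02 and 7.07, then 3.10 and 3.24. The vehicle library of day 3 was well above the GSK126 library for Arc, and on later days the treatments were nearly equal. Zfp36 (chr7:28376784-28379228) encodes tristetraprolin, which binds AU-rich elements and speeds the decay of mRNAs, several immediate early mRNAs among them. It had 97.6 and 72.4 CPM on day 3, 11.1 and 9.19 on day 6, then 10.4 and 9.16 on day 10.

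**Figure D1:**
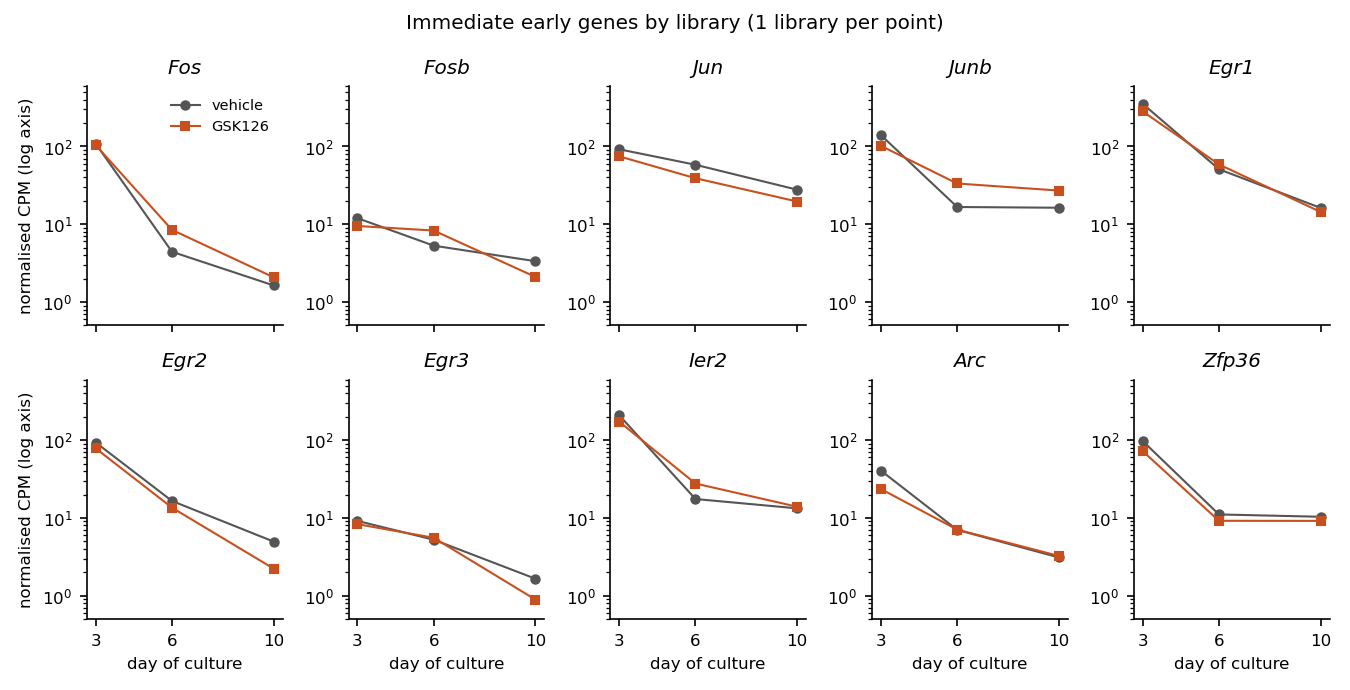
Normalised CPM (log axis) of each of the 10 genes against day of culture, with 1 point per library, vehicle as grey circles and GSK126 as orange squares. All 10 genes are lower on day 10 than on day 3 in both treatments, from 3.31-fold for Jun to 65.7-fold for Fos in vehicle.

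Over the whole period both day 10 libraries lay below both day 3 libraries for all 10 genes, and each gene was at least 2-fold lower in both treatments. Among all 14344 tested genes, 33.7% had day 10 libraries below both day 3 libraries, and 2.91% were at least 2-fold lower in both treatments. Since the genes were chosen on this contrast, nothing is read from these counts. The median log2 ratio of the 10 genes was -3.47 in vehicle and -3.09 with GSK126, beside -0.01 and near 0 over all tested genes. Taken singly, 5.42% of all genes were at least 2-fold lower in vehicle and 7.38% with GSK126. By edgeR's quasi-likelihood test, 12.5% of all genes were lower and 14.1% higher on day 10 (adjusted p below 0.05).

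The decline was not spread evenly over time, and the genes fell into different time courses. Most of the decline of Zfp36 and Junb lay in the first step. Zfp36 was 8.78-fold lower on day 6 than on day 3 in vehicle and 7.86-fold with GSK126, and then differed by a log2 ratio of only -0.10 (95% counting interval -0.28 to 0.08) and -0.0045 (-0.20 to 0.19). For Junb in vehicle 99.0% of the log2 decline had taken place by day 6, and the second step was -0.03 (-0.17 to 0.11). With GSK126 it was 84.2%, and Junb was lower again on day 10, by a log2 ratio of -0.30 (-0.41 to -0.20). Ier2 was close to them, with 90.0% and 72.7%.

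Fos, Egr1, Egr2 and Arc were lower in both steps, and at least 2-fold in each step and treatment. Fos, for example, was 24.4-fold lower on day 6 in vehicle and another 2.69-fold lower by day 10. With GSK126 the steps were 12.3-fold and 4.04-fold. Jun was lower by about equal steps with GSK126, 1.91-fold and 1.99-fold. In vehicle its second step was the larger, 1.58-fold and then 2.09-fold, with 38.3% of its log2 decline by day 6. Egr3 was late: only 32.6% of its log2 decline in vehicle and 18.2% with GSK126 had taken place by day 6. Its second step was 3.15-fold and 6.13-fold.

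The single libraries of Fosb gave unlike shares. In vehicle 63.9% of its log2 decline had taken place by day 6, and with GSK126 only 8.93%, with 8.30 CPM still present on day 6. The tested difference in its decline was -0.29 (SE 0.67, edgeR adjusted p = 0.994), and its sign depended on how the days were coded. In vehicle 8 of the 10 genes had more than 50% of the decline behind them by day 6, and with GSK126 6 of 10 did. Both day 6 libraries lay below both day 3 libraries for 10 of 10 genes (28% of all genes), and both day 10 libraries below both day 6 libraries for 8 of 10 (23.9%), all but Junb and Zfp36. A lower value at each step in each treatment, also 10 of 10, was found for 13.2% of all genes. At least 2-fold lower in both treatments were 7 genes between days 3 and 6 (1.39% of all genes) and 5 between days 6 and 10 (0.941%), and again the choice of the genes bears on both counts. In vehicle alone 8 genes were at least 2-fold lower in the first step (2.98% of all) and 6 in the second (2.55%), and with GSK126 7 (6.75%) and 6 (4.53%). By edgeR's test 0.237% of all genes were lower and 0.516% higher on day 6 than on day 3, and 0% lower and 0.00697% higher on day 10 than on day 6.

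**Figure D2:**
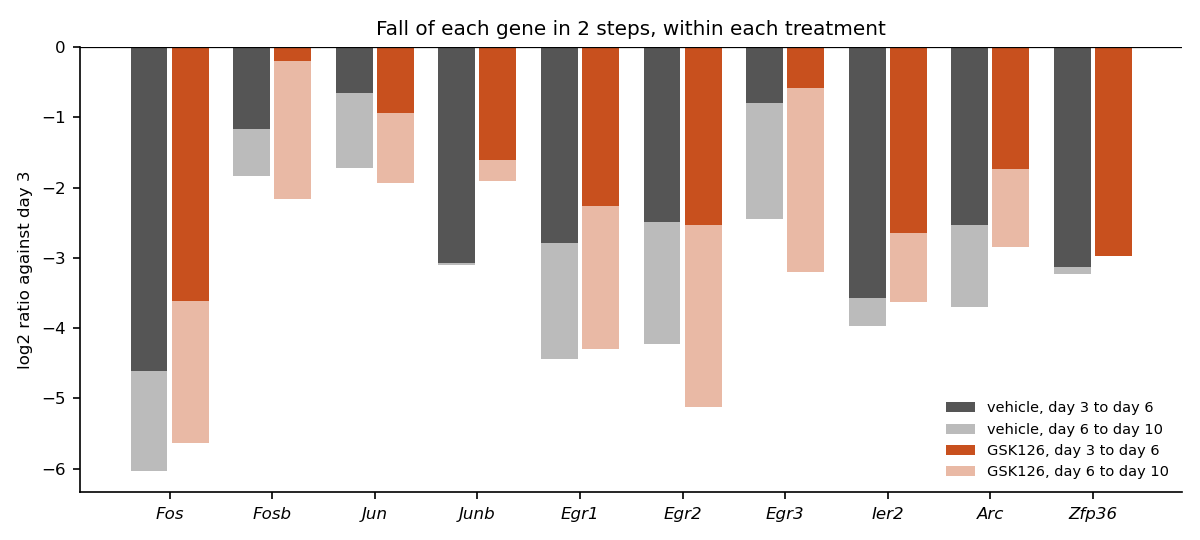
Log2 ratio of each gene against day 3, split into the step from day 3 to day 6 (dark) and from day 6 to day 10 (light), for vehicle (grey) and GSK126 (orange). The light part is nearly absent for Zfp36 in both treatments and for Junb in vehicle, and it is the larger part for Egr3 in both treatments.

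Levels of different genes were compared per length, as the deposited RPKM, which divides reads by gene length and library total. On day 3 the order in vehicle was Ier2 at 112 RPKM, Egr1 at 94.2, Junb at 62.3, Zfp36 at 45.2, Fos at 42.4, Egr2 at 25.7, Jun at 23.6, Arc at 10.9, Egr3 at 5.28 and Fosb at 2.59. With GSK126 the order was the same apart from Fos (40.9) and Zfp36 (33.7), which changed places. These are single libraries, so neighbours in the order cannot be tested. By day 10 Junb stood first in both treatments, at 7.08 and 11.3 RPKM, with Ier2 at 6.97 and 7.02 and Jun at 6.97 and 4.72. Fos had gone to 0.623 and 0.762 RPKM, rank 10 in vehicle and rank 7 with GSK126.

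The ratio of Fos to Jun turned between day 3 and day 6. Per length, Fos RNA was 1.79 times that of Jun in vehicle and 2.12 times with GSK126 on day 3. It was 0.116 and 0.330 times that of Jun on day 6, then 0.0893 and 0.161 times on day 10. Against Junb, Fos was the lower one already on day 3 (0.680 and 0.898 times). The AP-1 genes Fosl2 and Jund, looked up after the values of the first had been seen, had another course. Fosl2, a FOS relative, had 21.3 and 20.0 RPKM on day 3, 29.0 and 71.7 on day 6, then 17.6 and 16.3 on day 10. Jund, the JUN gene with the steadiest expression in most cells, had 14.3 and 17.1 RPKM on day 3, 24.1 and 33.8 on day 6, then 13.9 and 17.2 on day 10. Fosl2 and Jund were thus each above Fos per length in every library of days 6 and 10. Fosl1, another FOS relative, had 0.416 and 0.449 RPKM on day 3, 0.224 and 0.464 on day 6, then 0.174 and 0.200 on day 10. It rested on 36 to 106 counts per library. Its log2 difference between days 10 and 3 was -1.15 and did not pass (edgeR).

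Sequence before the gene start was examined because these genes share a decline, which is what chose them. RefSeq promoters (build GRCm38.p6, the same assembly as mm10) were matched for 6 of the 10 genes, Fos, Fosb, Jun, Junb, Egr2 and Zfp36, and 250 bases before the start were searched on both strands. Shown are Fos, which had the largest decline, Junb, whose treatments changed order, and Zfp36 and a 30-base stretch of Egr2, which hold a CArG box, the binding sequence of SRF. Capitals mark CArG boxes, TGACG (a partial CREB site, and part of the full site TGACGTCA) and TATAAA. Each runs 5′ to 3′ on the strand of its gene.
Fos (chr12:85473640-85473889, + strand): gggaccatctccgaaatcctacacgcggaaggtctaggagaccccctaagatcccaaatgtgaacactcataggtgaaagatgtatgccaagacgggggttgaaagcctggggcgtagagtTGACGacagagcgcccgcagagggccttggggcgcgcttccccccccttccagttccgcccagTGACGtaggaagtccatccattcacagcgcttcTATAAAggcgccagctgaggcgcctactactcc
Junb (chr8:84978749-84978998, - strand): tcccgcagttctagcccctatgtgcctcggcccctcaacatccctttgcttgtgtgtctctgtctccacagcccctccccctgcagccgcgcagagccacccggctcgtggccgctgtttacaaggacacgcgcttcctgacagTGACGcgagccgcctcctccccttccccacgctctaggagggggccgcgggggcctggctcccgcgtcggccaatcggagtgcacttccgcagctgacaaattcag
Zfp36 (chr7:28379229-28379478, - strand): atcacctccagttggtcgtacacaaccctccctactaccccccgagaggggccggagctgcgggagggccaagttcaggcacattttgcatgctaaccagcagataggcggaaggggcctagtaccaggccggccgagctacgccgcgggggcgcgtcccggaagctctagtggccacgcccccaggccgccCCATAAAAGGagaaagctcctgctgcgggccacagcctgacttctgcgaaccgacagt
Egr2 (chr10:67537787-67537816, + strand): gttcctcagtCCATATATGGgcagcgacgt

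A CArG box was present in 2 of the 6 promoters and in 1.18% of 9981 promoters of tested genes of the same length. TGACG was present in 4 of 6 (Fos, Fosb, Junb and Egr2) against 26.4%, and TATAAA in 1 of 6 against 6.85%. The EGR sequence GCGGGGGCG was present in 2 of 6 (Fosb and Zfp36) against 4.7%, and CCAAT in 3 of 6 (Jun, Junb and Egr2) against 36.6%. The full CREB site TGACGTCA and the AP-1 site TGACTCA were in 0 of 6, against 2.75% and 3.23%. These counts are of exact matches in 250 bases, leave out variant and more distant sites, and say nothing of binding.

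Whether GSK126 changed the expression of these genes was tested with a fit of day and treatment over all 6 libraries, in which the treatment term averages 3 within-day differences. The difference of day 10 came after withdrawal, so the term does not measure presence of the compound alone. None of the 10 passed (edgeR quasi-likelihood test, Benjamini-Hochberg adjusted p below 0.05). In the same test 1.01% of all genes were higher and 0.272% lower. At an unadjusted p below 0.05 there were 3 of 10, Jun, Egr2 and Zfp36, against 19.6% of all genes, and DESeq2 called 1, Jun, beside 9.22% of all genes. The median difference of the 10 was -0.18, beside near 0 over all genes, with 7 negative and 3 positive.

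Jun had the smallest adjusted p. Its log2 difference was -0.46 (standard error, SE, 0.082, n = 3 pairs, edgeR adjusted p = 0.067), and it was lower with GSK126 on 3 of 3 days. Day by day its log2 ratio was -0.30, -0.57 and -0.50, each with a counting interval below 0. Over the alternatives its adjusted p ranged from 0.00171, with DESeq2, to 0.322. Junb depended on day 3. Its log2 difference was 0.42 (SE 0.28, edgeR adjusted p = 0.485), and 0.87 without the vehicle library of day 3 (edgeR adjusted p = 0.0389) or without the GSK126 library of day 3 (edgeR adjusted p = 0.0362). Both of these fits drop the same within-day difference and are 1 result. Without both libraries of day 3 it was 0.87 and did not pass (edgeR adjusted p = 0.0586), with adjusted p from 0.0362 to 0.912 over the alternatives. Egr2 had -0.53 (SE 0.19, edgeR adjusted p = 0.215) and Zfp36 -0.30 (SE 0.084, edgeR adjusted p = 0.145), also lower on 3 of 3 days. Of all genes, 22.7% were lower on all 3 days. Egr2 differed most on day 10, with a log2 ratio of -1.15 (95% counting interval -1.50 to -0.82), when the vehicle library had 4.96 CPM and the GSK126 library 2.23.

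The other 7 genes did not keep 1 direction. On day 3 all 10 genes were lower with GSK126, while 50.5% of all genes were lower and 49.4% higher on that day. Counting intervals lay below 0 for 9 of them, but the share of all genes with such an interval was not computed. The interval of Fos reached up to -0.0073. The differences were modest, with a median log2 ratio of -0.31, from -0.06 for Fos to -0.79 for Arc, and 0 of 10 reached 2-fold (0.683% of all genes were at least 2-fold lower and 4.12% higher). On day 6 only 3 of 10 were lower, Jun, Egr2 and Zfp36, and 7 were higher (49.8% of all genes were lower and 50.2% higher). Fos, Fosb, Junb, Egr1, Egr3, Ier2 and Arc were lower on day 3 and higher on day 6, a pattern of 17.4% of all genes.

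On day 6 Junb had the largest log2 ratio of GSK126 over vehicle (1.00, 95% counting interval 0.88 to 1.12), before Fos (0.93, 0.70 to 1.17), Ier2 (0.66, 0.54 to 0.79) and Fosb (0.64, 0.42 to 0.87). Junb alone reached 2-fold, as did 6.06% of all genes, and 3.17% were at least 2-fold lower. Egr1 was 1.15-fold higher, and the intervals of Egr3 and Arc spanned 0. On day 10, after withdrawal of the compound, 6 were lower and 4 higher, beside 51.2% and 48.8% of all genes. Egr2 alone was at least 2-fold lower (4.13% of all genes) and 0 of 10 were 2-fold higher (4.54%). Junb was still higher, 1.66-fold, whereas Fosb was 1.59-fold and Egr3 1.84-fold lower. The intervals of Fos, Ier2, Arc and Zfp36 spanned 0 on that day. All these are differences between 1 library and 1 library, whose intervals cover counting error only.

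**Figure D3:**
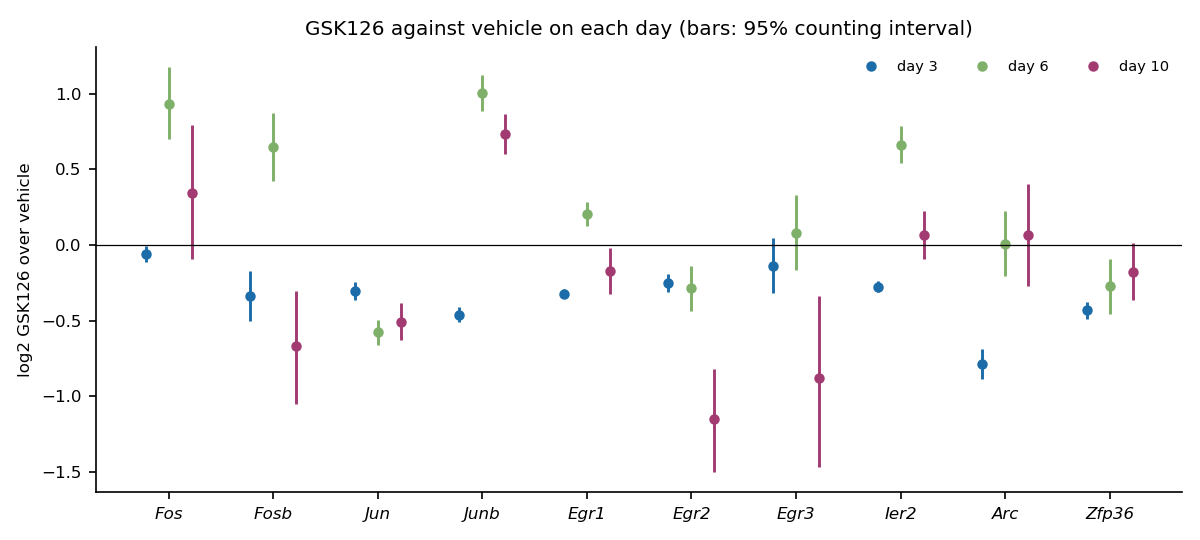
Log2 ratio of GSK126 over vehicle for each gene on day 3 (blue), day 6 (green) and day 10 (purple), 1 library against 1 library, with vertical bars for the 95% counting interval. All 10 genes lie below 0 on day 3, while 7 lie above 0 on day 6, with Junb the highest at 1.00.

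The same question was put to the decline itself, although the genes had been chosen for a decline in both treatments. A term for treatment by day, with the days coded as equal steps, estimates how far the change from day 3 to day 10 differed between treatments, and it leaves 1 residual degree of freedom. None of the 10 genes passed, nor did any of the 14344 genes (0 in each direction by edgeR, 742 at an unadjusted p below 0.05, 5.17% of all), while DESeq2 called 41 (0.286%). Junb declined less with GSK126 by 1.20 on the log2 scale (SE 0.49, edgeR adjusted p = 0.99), and Arc by 0.87 (SE 0.31, edgeR adjusted p = 0.938). Egr2 declined more, with -0.88 (SE 0.31, edgeR adjusted p = 0.931). For the other 7 the difference lay between -0.70 (Egr3) and 0.49 (Fos), with SE from 0.21 to 0.67. At an unadjusted p below 0.05 there were 2 of 10, Egr2 and Arc. The day 3 libraries enter both this term and the day 3 differences above, so the smaller decline of Arc with GSK126 and its lower day 3 level are not separate measurements.

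Genes of related function were taken from lists drawn up by function, though with earlier results of these data known, and for these the change over culture time was tested. In that test 12.5% of all genes fell and 14.1% rose, and each count below is to be read beside these shares. Of 36 other immediate early and primary response genes, 20 fell and 2 rose between days 3 and 10 (edgeR adjusted p below 0.05). Their median log2 difference was -0.76, beside -0.01 over all genes. Btg2, an antiproliferative gene, had a log2 difference of -2.50 (SE 0.20), and Ptgs2, the inducible cyclooxygenase, one of -2.10 (SE 0.37). Cyr61, a matricellular gene, had 675 and 579 CPM in vehicle and GSK126 on day 3 and 185 and 148 on day 10, with a log2 difference of -1.92 (SE 0.16). The nuclear receptor gene Nr4a1 fell from 61.5 and 76.9 CPM to 19.3 and 17.4. The genes that rose were Klf10 and Gadd45b, with 0.86 and 0.97.

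The call count of this list depended on single libraries. Without the GSK126 library of day 3, 3 of the 36 genes fell, and without the vehicle library of day 10, 4. Without the vehicle library of day 3 it was 10, and without the GSK126 library of day 10, 11. The calls over all genes dropped in the same fits, from 1793 that fell to 22, 50, 347 and 566 in that order. The median lay between -0.83 and -0.67 in these fits.

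Relatives of the 10 genes formed a further list. Of 13 tested AP-1, EGR and ZFP36 relatives and EGR corepressors, 6 fell and 0 rose, with a median of -0.44. Zfp36l2 (-1.16, SE 0.086) and Zfp36l1 (-0.91, SE 0.14) encode proteins that bind AU-rich mRNAs like tristetraprolin, and Nab1 (-0.74, SE 0.10) a corepressor of EGR proteins. Ier5, which is also among the 36 above, had -0.60. Of 11 tested genes that damp MAP kinase signalling, 5 fell and 0 rose, with a median of -0.45. Dusp1, a phosphatase gene that is itself immediate early, had -1.61 (SE 0.16), Dusp10 -0.85 (SE 0.12) and Spry2 -0.83 (SE 0.17), and Dusp5 fell from 3.46 and 2.93 CPM to 1.26 and 1.17.

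Factors upstream were also lower in part. Of 14 genes for SRF, its partners, CREB factors and their kinases, 7 fell and 0 rose, with a median of -0.30. Srf had -0.67 (SE 0.19), its coactivator genes Mkl1 -0.89 (SE 0.14) and Mkl2 -0.66 (SE 0.13), and the ERK-activated kinase gene Rps6ka3 -0.75 (SE 0.088). Of 15 cytoskeletal genes of the SRF program, 7 fell and 0 rose, with a median of -0.56. Acta2, smooth muscle actin, had -1.37 (SE 0.24), Flna -0.85 (SE 0.15), Tagln -0.84 (SE 0.088) and Cnn1, at under 1 CPM in every library, -2.20 (SE 0.48).

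These counts, too, rested on single libraries. Without the GSK126 library of day 3 or without the vehicle library of day 10, 1 relative fell, and 0 genes fell in the MAP kinase, SRF and cytoskeletal lists. Without the vehicle library of day 3 the relatives, MAP kinase, SRF and cytoskeletal lists had 2, 1, 1 and 3 genes that fell, and without the GSK126 library of day 10 they had 3, 2, 2 and 5.

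Among 10 tested genes with AP-1 regulation, often placed downstream, 3 rose and 2 fell, beside 14.1% and 12.5% of all genes. Mmp13, a collagenase gene, rose from 3.48 and 9.93 CPM on day 3 to 150 and 238 on day 10 in vehicle and GSK126 (log2 difference 4.99, SE 0.23). Spp1, osteopontin, had 2.19 (SE 0.40), Timp1, a protease inhibitor, 1.02 (SE 0.22) and Cd44, a hyaluronan receptor, -1.01 (SE 0.14). Among 7 tested mRNAs that ZFP36 binds, 2 fell and 0 rose, the chemokine gene Ccl2 (-1.55, SE 0.38) and the cytokine gene Lif (-0.90, SE 0.16). Csf1 had -0.34 (SE 0.22, edgeR adjusted p = 0.298) and Vegfa 0.18 (SE 0.27, edgeR adjusted p = 0.632). Without the GSK126 library of day 3 or the vehicle library of day 10, 1 gene with AP-1 regulation rose and 0 fell, and 0 ZFP36 targets fell. Without the vehicle library of day 3, 1 AP-1 gene rose, 1 fell and 1 ZFP36 target fell. Without the GSK126 library of day 10, 2 AP-1 genes rose, 1 fell and 0 ZFP36 targets fell, and without that of day 6, 1 ZFP36 target fell.

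Heat shock genes, which often respond to handling of cells, were at a median of -0.03. Of 10, 1 fell (Hspb1, -1.52, SE 0.30), and 0 did without any 1 of the 4 libraries of days 3 and 10. Of 14 proliferation genes 0 passed in either direction (edgeR), at a median of -0.25 between days 3 and 10. Between days 3 and 6, in which 8 of the 10 immediate early genes had more than 50% of their decline in vehicle, 14 of 14 were negative with a median of -1.19, and 0 passed. For the effect of GSK126 on the change from day 3 to day 10, 14 of 14 were positive with a median of 0.77, and 0 passed. Negative values made up 50.0% of all genes between days 3 and 6, and 50.8% for that effect of GSK126. For days 3 and 10, without the vehicle library of day 6, 5 fell, without the GSK126 library of day 6, 3, and without the GSK126 library of day 10, 2. Mki67, the proliferation marker, had 502 and 549 CPM on day 3, 293 and 121 on day 6, then 146 and 271 on day 10 (log2 difference between days 10 and 3 -1.32, SE 0.48, edgeR adjusted p = 0.0948). The part of proliferation in the course of the immediate early genes was not tested. The 7 neuron markers, of interest because Arc is best known in neurons, were led by Tubb3 and summed to 27.5 CPM in vehicle on day 3 and to 160 with GSK126 on day 10. Of the 5 that were tested, 2 rose and 0 fell. Tubb3 and Camk2a rose, with 2.54 (SE 0.26) and 2.27 (SE 0.13), while Arc was lower. The others did not pass: Syp had 0.96 (SE 0.53), Snap25 0.02 and Syn1 -0.30 (SE 0.11). Nefl was at 0 counts in every library.

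For the treatment, edgeR called 1.01% of all genes higher and 0.272% lower with GSK126. In the 9 lists of related function it called 2 genes, Tagln (-0.54, SE 0.071, edgeR adjusted p = 0.0428) and the heat shock gene Hspa1b, both lower. Neither list kept a call with the filter of 1 CPM in 3 libraries or without day 3, day 6 or day 10. Among the neuron markers Tubb3 was higher with GSK126 (1.76, SE 0.21, edgeR adjusted p = 0.0333). It, too, did not pass with the filter of 1 CPM in 3 libraries, without day 6 or without day 10. Of the 36 other immediate early genes edgeR called 0, or 2 higher without day 3, whereas DESeq2, with 9.22% of all genes called, had 8 higher and 5 lower. DESeq2 also called 3 SRF and CREB genes, 4 cytoskeletal genes and 1 heat shock gene lower. It called 2 genes with AP-1 regulation and 1 relative of the 10 genes higher. Of the ZFP36 targets it called 2 higher and 1 lower, and of the MAP kinase list 1 higher and 1 lower.

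**Figure D4:**
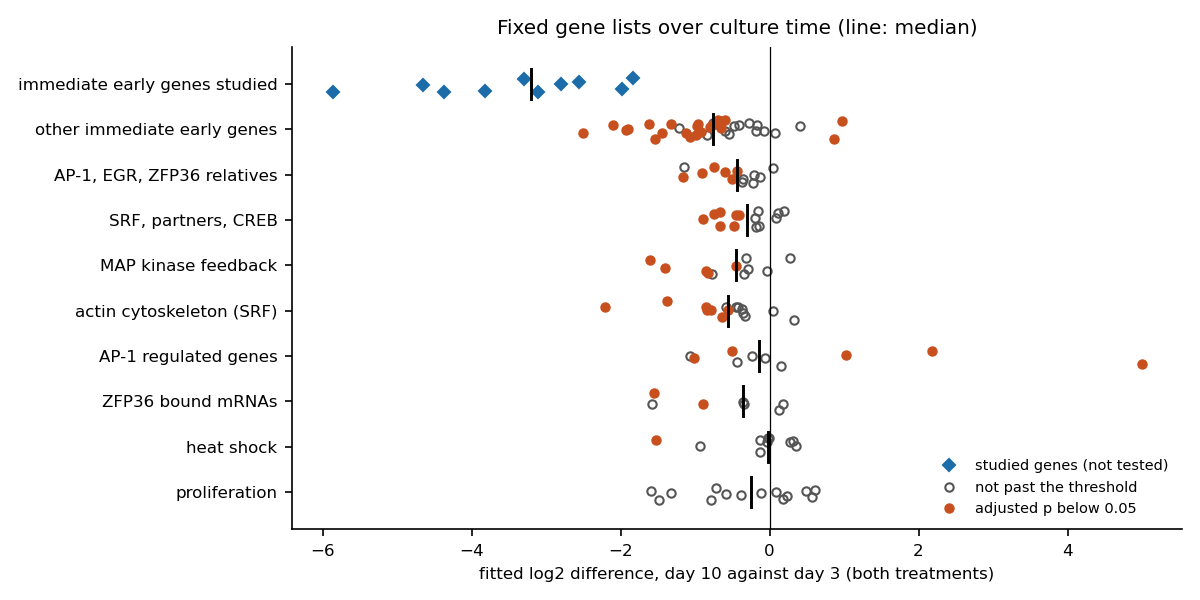
Fitted log2 difference between days 10 and 3 over both treatments for the tested genes of 10 lists, with filled orange points for an adjusted p below 0.05, open points for the rest, blue diamonds for the 10 studied genes (chosen on this contrast and not tested) and a black line at each median. The median of the 36 other immediate early genes is -0.76, and that of the heat shock genes lies at -0.03.

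Outside these lists, the genes whose time course was nearest to the median course of the 10 were named by the root mean square (RMS) distance of centred log2 CPM over the 6 libraries. They were Pkp2, a desmosome gene (distance 0.39), Sox11, a developmental transcription factor (0.45), the histone methyltransferase gene Suv420h2 (0.49), the adhesion gene Alcam (0.59), Tes (0.62), Lss, a sterol synthesis enzyme (0.67), D330022K07Rik (0.68) and Mcam (0.69). Suv420h2 had 67.3 and 73.1 CPM on day 3, 10.9 and 12.4 on day 6, then 11.2 and 10.6 on day 10, close to the course of Zfp36. Among the 10 themselves, Arc lay nearest to the median course (0.11) and Fos farthest from it (1.11), since its decline was the largest. Pearson's r between these 8 genes and the median course was 0.91 to 0.98 over 6 libraries that share their days, and it serves as a description.

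H3K27me3 at the 10 genes was examined in the islands that the authors had called, 1 immunoprecipitate against its input in each treatment. No island overlapped the body of any of the 10 genes in either treatment. Of the tested genes 9.16% had one in vehicle and 7.73% with GSK126. The tested genes were not matched in length to the 10, here or in the window below, and a longer gene has more room for an island. Within 5 kb of the gene, 1 of 10 had an island in vehicle, Egr2, and 0 of 10 with GSK126, against 19.3% and 15.6% of tested genes. The Egr2 island (chr10:67532401-67535600 in mm10) ended 2.27 kb before the listed gene, with 52 immunoprecipitate reads over 36 input reads and the authors' fold enrichment of 2.43. In the GSK126 list the nearest island to Egr2 was 88.1 kb away. Egr1 had an island 7.65 kb from the gene in vehicle and 6.65 kb with GSK126, at fold enrichments of 2.59 and 2.12.

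The nearest islands to the other 8 genes lay 14.9 to 199.8 kb away in vehicle. At Fos an island was listed 24.1 kb away in vehicle and 23.5 kb away with GSK126, with a fold enrichment of 3.20 in vehicle and 2.76 with GSK126. The vehicle list held 34498 islands with a median length of 3400 bases, and the GSK126 list 24947 with a median of 5600, so presence in 1 list and absence in the other also depends on how each library was called. With 1 immunoprecipitate per treatment the difference at Egr2 has no replicate check.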

How the data were processed

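RNA (TruSeq v2 mRNA, a kit that does not mark strand, so overlapping antisense transcripts are not separated) was sequenced in 6 libraries, and H3K27me3 in 2 immunoprecipitates with 2 inputs. The submitters' processing notes name TopHat2 2.0.6 and HTSeq 0.5.3p9, BWA 0.5.9 and SICER 1.1, and build mm10, without stating roles. Annotation release, counting mode and SICER settings: not given in the sources used here. Deposited counts are whole numbers per gene without normalization, and 0 of them were odd, so fragments were taken as counts divided by 2 for intervals. The deposited RPKM divides the authors' counts by the listed gene length and by a library total 1.24 to 1.29 times the summed counts. Per the layout that SICER writes, the authors' island lists give read counts, p-values and a fold ratio of ChIP over input.

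Under R 4.3.3, edgeR 4.0.16 fitted the counts by its quasi-likelihood method with TMM factors and its own low-count filter (grouped by treatment), and p-values were adjusted by Benjamini-Hochberg over 14344 genes. Day entered as a factor beside treatment, with 2 residual degrees of freedom, or with a treatment by day term added, with 1. P-values therefore measure only the spread between these libraries. Standard errors were obtained as log2 difference over root F. The biological coefficient of variation was 14.8%. The scripts were tested on simulated data. Ratios between 2 libraries used CPM after TMM, prior count 2, and exact binomial 95% intervals. Alternatives used DESeq2 1.42.0, limma-voom 3.58.1, other scalings and filters, and each library or day left out. The island window was taken 5 kb beyond both ends of a gene, not only around its start, because strand was not known for all 10 genes. Besides the 10 genes, up to 4 genes per list were named, those past the threshold with the largest difference between days 3 and 10, then the most abundant, and the 8 genes with the nearest time course and a mean log2 CPM of at least 1. The 10 genes and the lists were chosen with earlier results of these data known. Klf10, Gadd45b, Hspa1b, Fosl1, Fosl2 and Jund fall outside that rule and were named after their values were seen.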

Additional observations from a re-analysis of the deposited data

Results flagged for a closer look

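The difference between GSK126 and vehicle pointed in opposite directions on a pair of days for 5 genes, each beyond its counting interval. With 1 library per treatment and day these turns were not tested one by one, and their share over all genes was not computed. Fos went from a log2 ratio of -0.06 on day 3, with a counting interval that reached up to -0.0073, to 0.93 on day 6. Ier2 went from -0.27 to 0.66. Junb went from -0.46 on day 3 to 1.00 on day 6 and 0.73 on day 10. Fosb was at -0.33 on day 3, 0.64 on day 6 and -0.67 on day 10, and Egr1 at -0.32, 0.20 and -0.17. In the fitted test of the change from day 3 to day 10, 0 of the 10 genes passed (edgeR).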

How the results depend on the processing

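No paired analysis was possible because the labels carry no replicate numbers, other than the pairing of treatments by day that the GSK126 fit already holds. Counts of genes past an adjusted p of 0.05 moved as follows, and the cause was not tested. For GSK126 (184 genes) DESeq2 gave 1323, a filter of 1 CPM in 3 libraries 72, leaving out day 3, 6 or 10 308, 19 and 4, and leaving out 1 library 0 to 498. For its effect on the decline (0 genes) DESeq2 gave 41. For day 10 against day 3 (3819 genes) a fit with no treatment term gave 1486 and leaving out 1 library 70 to 3447. For day 6 against day 3 (108 genes) DESeq2 gave 1713, the CPM filter 43, no treatment term 1, and leaving out 1 library 7 to 803. For day 10 against day 6 (1 gene) library size scaling gave 54, DESeq2 2116, no filter 57, limma-voom, the CPM filter and no treatment term 0 each, and leaving out 1 library 0 to 71. Scaling by library size moved the median of all genes to -0.11 for day 10 against day 3 and -0.10 for day 6 against day 3, and the split of day 10 calls from 2026 higher and 1793 lower to 1484 and 2644. All 10 genes stayed lower on day 10 under each scaling.

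Within 2 kb, 0 of the 10 genes had a vehicle island, and within 10 kb 2 in vehicle and 1 with GSK126.

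For single genes the GSK126 difference changed sign in Fosb (-0.50 to 0.15 leaving out 1 library, 0.015 without day 3, 0.15 without day 10), Egr1 (-0.25 to 0.018, and 0.025 without day 3), Ier2 (-0.11 to 0.37, and -0.11 without day 6) and Arc (-0.40 to 0.035, and 0.043 without day 3). Its effect on the decline changed sign in Fos (-0.061), Egr1 (-0.11) and Ier2 (-0.12) with day 10 set against days 3 and 6, and in Fosb with limma-voom (0.046) or with days 6 and 10 set against day 3 (0.35). Leaving out 1 library, the day 10 against day 6 difference ran from -0.58 to 0.30 for Junb and from -0.14 to 0.038 for Zfp36. At the lowest levels, as for Fos and Egr3 on day 10, counting error alone widened the intervals.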
